A study of Mus musculus with 52 samples.

Results

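The mitochondrial ribosomal protein genes are the nuclear genes named Mrpl (proteins of the large subunit) and Mrps (proteins of the small subunit). They were taken here by symbol, Mrpl or Mrps followed by a digit, and 61 of the 9030 named genes on the array matched, 38 Mrpl and 23 Mrps genes with 76 probes. Probes of a gene were averaged: 48 of the genes had 1 probe, 11 had 2 and 2 had 3. RefSeq lists 78 protein-coding genes with such symbols, and 17 of them had no probe named for them here. Their transcripts were measured in 7 mouse lines of embryonic stem (ES) cells on 52 cDNA arrays. Each array was hybridised with RNA of 2 lines in different dyes, which gave 13 direct comparisons of 4 arrays.

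The lines were HM-1, an established ES line, and HM-1 NT, then #4 (B6) with B6NT and B6PGA, and last PDCUMNT and ZFCUMNT. By the submitters' account of the series they differ in the donor cells of their nuclei, with cumulus cells (somatic cells that surround the oocyte) behind a pair of lines made by different cloning methods. NT, B6, PGA, PD and ZF are not spelled out in the labels, and no further genotype, passage or culture condition is given there. HM-1 was set against each of the other 6 lines. B6NT was also compared with HM-1 NT and with ZFCUMNT, #4 (B6) with B6NT, B6PGA and ZFCUMNT, and ZFCUMNT with HM-1 NT and with PDCUMNT. The dye of the second-named line was Cy5 on arrays 1 and 2 of a comparison and Cy3 on arrays 3 and 4. A value below is a log2 ratio, second-named line minus first-named line, under the reading that the deposited ratio is Cy5 over Cy3. Under the opposite reading all signs below turn. The labels do not say that the 4 arrays of a comparison came from separate cultures or RNA extracts, so the p-values measure the spread between arrays, which may be technical. For each gene that spread was pooled over all comparisons. The standard error (SE) of a fitted ratio is therefore not the spread of the few arrays printed beside it, which can be wider.

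Mitochondria translate the few proteins that their own genome encodes, all of them subunits of the respiratory chain and the ATP synthase, on ribosomes of their own. The ribosomal RNAs of these particles come from mitochondrial DNA, while every protein of them is encoded in the nucleus, made in the cytosol and imported. Many of the proteins have a counterpart in bacteria and others were added in the mitochondrial lineage, and loss of several of them is known to cause combined respiratory chain deficiency in humans. Pluripotent stem cells are known for relying strongly on glycolysis while keeping active mitochondria.

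The array annotation placed the 61 genes on 17 chromosomes, and 39 of them have a bacterial counterpart while 22 do not. Large and small subunit classes below follow the symbol, which for Mrps18a and Mrps30 is not where the protein sits in the mammalian particle. On all 52 arrays 30 of the genes were measured, and the least often measured, Mrpl30, had values on 31. A value was tested where at least 3 of the 4 arrays measured the gene in both dye orientations, which held for 45 genes in all 13 comparisons. Where arrays were left out, 2 measured arrays, 1 in each orientation, were enough. The median residual standard deviation was 0.718 for these genes and 0.901 over all features. The sets are unlike, since 13 of these genes average several probes and all features include 8023 single probes without a symbol. Lower scatter is therefore not read as a trait of the family. Two-colour ratios carry no absolute level, so it was not checked whether a gene or a marker of ES cells was on or off, and fewer cells of a type and less RNA per cell cannot be told apart. For each array, turned as its labels say, the values of all features were correlated with those computed through other comparisons. The correlation was below 0 on 6 of the 52 arrays, namely array 3 of HM-1 vs #4 (B6), arrays 3 and 4 of #4 (B6) vs B6NT, arrays 1 and 3 of HM-1 NT vs ZFCUMNT and array 2 of PDCUMNT vs ZFCUMNT. The calls that rest on those arrays are also given without them where a test was then possible. On the other arrays the correlation was low too, at most 0.21. Turned ratios, less each feature's dye difference, were also correlated between arrays of opposite dye orientation within a comparison. The mean of these correlations ran from -0.141 in HM-1 vs #4 (B6) to 0.0628 in B6NT vs HM-1 NT. All fitted values below are limited by this.

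Across the 13 comparisons 5 of 750 values of mitochondrial ribosomal protein genes passed an adjusted p of 0.05 (limma with Benjamini-Hochberg adjustment within each comparison over all features), which is 0.667%. Over all features 1096 of 205999 values passed, or 0.532%, so the share among these genes was close to the background. At an unadjusted p under 0.05 the share was 6.4% (48 values), against 7.79% over all features, and 29 of the 61 genes never reached it. The median size of a value, sign disregarded, was 0.24 for these genes and 0.27 over all features. Genes of the cytosolic ribosome passed in 10 of 780 values (1.28%), and genes of the respiratory chain, the ATP synthase and their assembly factors in 8 of 916 (0.873%).

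Between HM-1 and the other lines none of the mitochondrial ribosomal protein genes passed limma's adjusted threshold. For HM-1 NT against HM-1 the count was 0 of 60, where 0.254% of all features passed, with 3 at an unadjusted p under 0.05. In HM-1 vs #4 (B6) 0 of 57 passed against 0.219%, with 2 at the unadjusted level. In HM-1 vs B6NT it was 0 of 58 against 0.17%, with 3. HM-1 vs B6PGA had 0 of 57 against 0.494%, with 1, and HM-1 vs PDCUMNT 0 of 60 against 1.14%, with 5. HM-1 vs ZFCUMNT had 0 of 58 against 0.101%, with 1. At each of these background shares fewer than 1 gene of 60 would pass.

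Among the comparisons without HM-1, 1 of 56 genes passed in B6NT vs HM-1 NT, where 1.04% of all features did. In #4 (B6) vs B6NT it was 1 of 59 against 0.245%, in #4 (B6) vs B6PGA 2 of 58 against 1.22%, and in HM-1 NT vs ZFCUMNT 1 of 54 against 0.292%. None passed in B6NT vs ZFCUMNT (0 of 59, background 0.124%, 2 at an unadjusted p under 0.05), in #4 (B6) vs ZFCUMNT (0 of 57, 0.935%, 5) or in PDCUMNT vs ZFCUMNT (0 of 57, 0.763%, 5). The 5 values that passed belonged to 5 different genes, Mrps18a, Mrpl16, Mrps27, Mrps23 and Mrpl36.

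**Figure D1:**
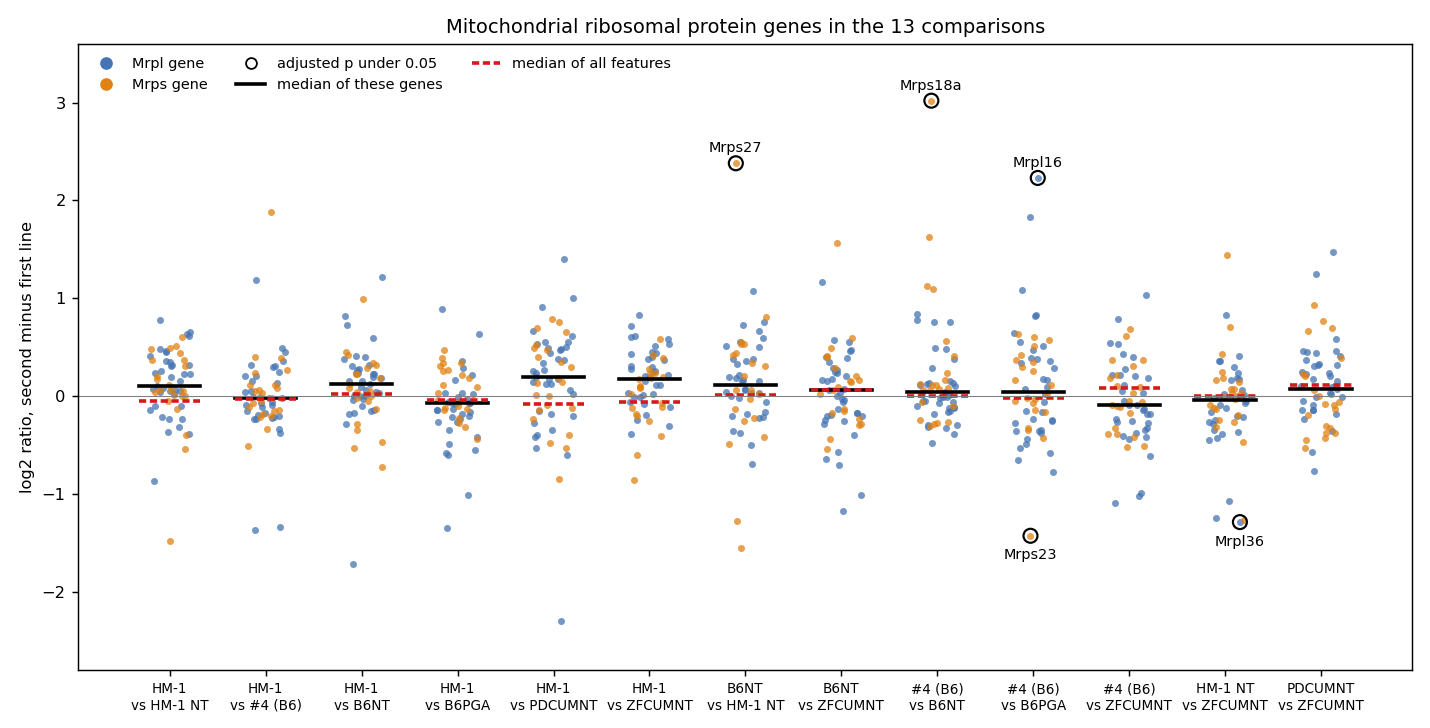
Fitted log2 ratio (y axis, second minus first line) of each mitochondrial ribosomal protein gene in the 13 comparisons (x axis), Mrpl genes in blue and Mrps genes in orange, with the median of these genes (black) and of all features (red, dashed). The 5 circled values passed an adjusted p of 0.05, from 3.02 for Mrps18a to -1.43 for Mrps23, and most other points lay within 1 unit of 0.

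Mrps18a (Entrez gene 68565, chromosome 17) encodes 1 of several mammalian relatives of bacterial S18. Its protein is found in the large subunit of the mammalian mitochondrial ribosome in spite of the symbol. In #4 (B6) vs B6NT its log2 ratios were 3.73 on array 1, 1.98 on array 3 and 2.82 on array 4, with no value on array 2. All 3 were high and positive in either dye orientation. The fitted value was 3.02 ± 0.35 (SE, n = 3 arrays, adjusted p = 1.2e-06), an 8.11-fold difference, with B6NT the higher line under the reading Cy5 over Cy3. Elsewhere Mrps18a followed the dyes more than the lines, reading 0.56, 1.13, -0.84 and -0.60 on the arrays that set HM-1 against HM-1 NT, and 1.16, 0.57, -0.88 and -0.81 on those of HM-1 vs PDCUMNT. Its dye term, Cy5 minus Cy3, was 0.54 ± 0.09 (adjusted p = 2.4e-05). The call was made with arrays 3 and 4, which are among those that correlated below 0 with their prediction, and without these 2, or without array 1, no test could be made. Without array 3 the value was 3.27 (adjusted p = 2.6e-05) and without array 4 it was 2.85 (2.4e-04). Each of these rested on only 2 arrays, 1 of them among those below 0, with a spread taken mostly from the other comparisons. Fitted without the other comparisons, the value on all 3 arrays did not pass (limma, adjusted p = 0.61).

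Mrpl16 (Entrez gene 94063, chromosome 19), a large subunit protein near the peptidyl transferase centre with a bacterial counterpart, stood out in #4 (B6) vs B6PGA. Its 4 arrays read 4.61, 2.28, 0.87 and 1.15, all positive, with both Cy5 arrays above both Cy3 arrays. The fit gave 2.23 ± 0.38 (SE from the pooled spread, n = 4, adjusted p = 3.7e-04), a 4.69-fold difference, B6PGA being higher. Fitted without the other comparisons, the value did not pass (limma, adjusted p = 0.61). Leaving out array 1 lowered the value to 1.45 (adjusted p = 0.03), by over 1.5 times, and kept it past the threshold, as did leaving out any other array. The next highest value of Mrpl16 was 1.17 ± 0.38 in B6NT vs ZFCUMNT (arrays 1.15, 1.79, 0.07 and 1.66, adjusted p = 0.39).

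Mrps27 (Entrez gene 218506, chromosome 13) encodes a small subunit protein with pentatricopeptide repeats, a kind of repeat found in proteins that bind organelle RNA. It read 2.12, 0.51, 5.15 and 1.74 on the 4 arrays of B6NT vs HM-1 NT, positive on all and highest by far on array 3. The fitted value was 2.38 ± 0.57 (SE from the pooled spread, n = 4, adjusted p = 0.029), a 5.21-fold difference, HM-1 NT being higher. Fitted without the other comparisons, the value did not pass (limma, adjusted p = 0.67). It did not pass without array 1 (2.52, adjusted p = 0.065), without array 4 (2.55, 0.063) or without array 3, where it fell to 1.38 (0.41).

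Mrps23 (Entrez gene 64656, chromosome 11), a small subunit protein without a bacterial counterpart, was the 1 gene of the group whose called value was negative in #4 (B6) vs B6PGA. Its arrays read -0.99, -3.52, -1.16 and -0.04, so 3 were clearly below 0 and array 4 lay at 0. The fit gave -1.43 ± 0.38 (SE from the pooled spread, n = 4, adjusted p = 0.042), a 2.69-fold difference, B6PGA being lower. Fitted without the other comparisons, the value did not pass (limma, adjusted p = 0.61). The gene had 2 probes, and singly neither passed, at -1.22 (adjusted p = 0.40) and -0.98 (0.24). On array 3 the first probe read 0.019 and the second -2.338, and on array 2 only the first gave a value, -3.525. Without array 2 the averaged value was -0.73 (adjusted p = 0.53), without array 1 it was -1.60 (0.051) and without array 3 -1.50 (0.088).

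Mrpl36 (Entrez gene 94066, chromosome 13), a small protein of the large subunit with a bacterial counterpart, passed in HM-1 NT vs ZFCUMNT. Its arrays read -1.42, 1.07, -1.88 and -2.92, so array 2 had the opposite sign to the other three. The fitted value was -1.29 ± 0.30 (SE, n = 4, adjusted p = 0.042), a 2.45-fold difference, ZFCUMNT being lower. Mrpl36 had the highest dye term of all 61 genes, 0.67 ± 0.08 (adjusted p = 9.4e-08). In most comparisons its Cy5 arrays were positive and its Cy3 arrays negative, such as 1.64, 1.01, -0.74 and -0.30 in HM-1 vs ZFCUMNT, and array 1 here departed from that pattern. Arrays 1 and 3 correlated below 0 with their prediction, and without these 2 the value was -0.93 (adjusted p = 0.33). The call was also lost without array 1 alone (-1.01, 0.20), array 3 (-1.32, 0.080) or array 4 (-0.96, 0.26).

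**Figure D2:**
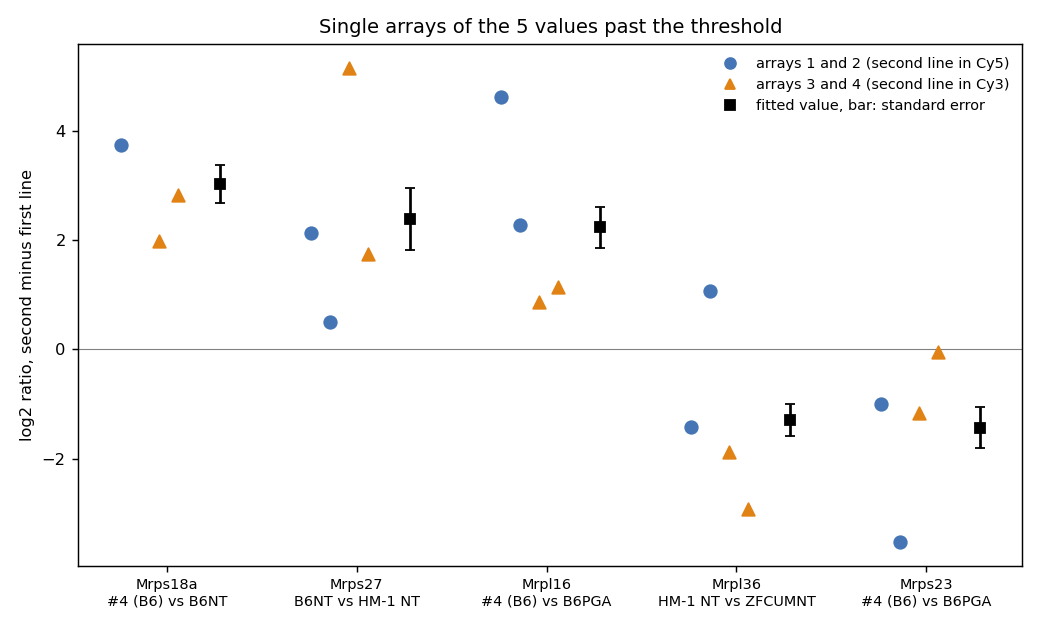
Log2 ratio (y axis, second minus first line) on each array for the 5 values that passed an adjusted p of 0.05 (x axis), with circles for arrays 1 and 2 (second line in Cy5), triangles for arrays 3 and 4 (Cy3) and squares for the fitted value with its standard error. The standard error comes from the spread pooled over all comparisons. Mrps18a, Mrps27 and Mrpl16 were positive on every array that measured them, while Mrpl36 had 1 array of opposite sign, at 1.07.

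Several comparisons share lines, so a difference between 2 lines can also be read through another line on other arrays. For none of the 5 calls did that route give a value of like size. Mrps18a, at 3.02 between #4 (B6) and B6NT, was at 0.50 through HM-1. Mrpl16, at 2.23 between #4 (B6) and B6PGA, was at 0.26 through HM-1, and Mrps23, at -1.43 between the same lines, was at 0.27, with the sign turned. Mrps27, at 2.38 between B6NT and HM-1 NT, was at 0.41 through HM-1 and -0.09 through ZFCUMNT. Mrpl36, at -1.29 between HM-1 NT and ZFCUMNT, was at -0.23 through B6NT and 0.36 through HM-1. When the 13 comparisons were replaced by the 6 differences that 7 lines allow, 4 of these 5 could be fitted. They were then at 1.27 for Mrpl16 (adjusted p = 0.44), 1.07 for Mrps27 (0.47), -0.67 for Mrps23 (0.63) and -0.45 for Mrpl36 (0.74). Each line is named in several comparisons, but the labels do not say whether its RNA was the same in all of them.

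The sequences just before the start of the 5 genes are shown because promoters of nuclear genes for mitochondrial proteins are known for sites of ETS factors such as GABP and of NRF1, and most of them have no TATA box. The 120 bases before the start are given 5′ to 3′ on the gene's strand (plus in all 5), from RefSeq, build GRCm38.p6. Capitals mark CCGGAAG (the ETS letters searched), the NRF1 letters (GCGC and TGCGC with any 1 base between them) or TATAAA, each on either strand.
Mrps18a, chr17:46110884-46111003: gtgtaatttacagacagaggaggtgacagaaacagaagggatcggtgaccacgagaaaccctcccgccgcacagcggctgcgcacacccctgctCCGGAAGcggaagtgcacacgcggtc
Mrpl16, chr19:11770295-11770414: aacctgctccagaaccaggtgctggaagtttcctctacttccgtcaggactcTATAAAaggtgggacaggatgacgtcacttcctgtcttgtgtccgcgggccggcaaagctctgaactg
Mrps27, chr13:99344666-99344785: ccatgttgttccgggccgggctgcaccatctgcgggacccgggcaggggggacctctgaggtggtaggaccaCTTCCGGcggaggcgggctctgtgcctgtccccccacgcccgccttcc
Mrps23, chr11:88204268-88204387: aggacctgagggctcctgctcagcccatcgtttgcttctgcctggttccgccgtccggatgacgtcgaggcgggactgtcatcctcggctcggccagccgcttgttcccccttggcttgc
Mrpl36, chr13:73330889-73331008: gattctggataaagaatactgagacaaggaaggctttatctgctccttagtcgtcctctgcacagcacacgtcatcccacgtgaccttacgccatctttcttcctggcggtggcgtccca
The 5 windows differed: Mrps18a and Mrps27 held the ETS letters, Mrpl16 held TATAAA, and Mrps23 and Mrpl36 held none of the letters marked.

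Promoters of 54 of the 61 genes were listed, as 57 windows of 250 bases before the start, and 7 genes were not matched. The ETS letters stood in 14 windows of mitochondrial ribosomal protein genes (24.6%), against 11.8% of the windows of all genes on the array and 6.91% of all promoters listed. NRF1 letters stood in 12.3%, against 7.11% and 3.74%. GGGCGG, the Sp1 box, which the GC-rich NRF1 letters do not contain, was in 54.4%, against 53.7% and 32.7%, and CCAAT in 40.4%, against 35.0% and 33.8%, again on either strand. TATAAA was in 7.02%, against 7.3% and 12.4%. A match is a description of these letters in this window and not a site in use.

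The 25 genes of the large subunit with a bacterial counterpart spanned, from the lowest to the highest of their fitted values over the comparisons, 0.54 to 4.13 (median 1.18). The span was smallest for Mrpl23, a protein at the exit of the peptide tunnel, whose values lay between -0.25 and 0.29. It was widest for Mrpl13, at -2.30 ± 0.76 in HM-1 vs PDCUMNT and 1.83 in #4 (B6) vs B6PGA, neither of which passed (adjusted p = 0.14 and 0.33). In HM-1 vs PDCUMNT its arrays read -1.04, -6.52, -1.47 and -0.18, so the size rested on array 2. Mrpl12, the stalk protein that recruits translation factors, was positive in 9 of 13 comparisons, with 0.61 for HM-1 NT against HM-1, on arrays of 0.82, 1.14, 0.35 and 0.11 (adjusted p = 0.58). Mrpl10, which anchors Mrpl12 to the stalk, stayed between -0.31 and 0.39, and Mrpl11 at the stalk base between -0.27 and 0.38.

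Others of this class were also near 0 in most comparisons. Mrpl2, by homology close to the peptidyl transferase centre, ran from -0.49 to 0.66, Mrpl4 from -0.36 to 0.83, and Mrpl1 of the other stalk from -0.35 to 0.83. Mrpl17 lay between -0.55 and 0.53, Mrpl20 between -0.39 and 0.63, Mrpl21 between -0.78 and 0.38, Mrpl28 between -0.27 and 0.64 and Mrpl34 between -0.58 and 0.47. Mrpl35 ranged from -0.35 to 0.79 and Mrpl47 from -0.38 to 0.78. Mrpl33 was the member closest to the threshold without passing: it was at 1.47 ± 0.42 in PDCUMNT vs ZFCUMNT (arrays 0.13, 1.31, 1.04 and 3.42, adjusted p = 0.082) and at 1.40 ± 0.42 in HM-1 vs PDCUMNT (arrays 1.06, 0.82, 1.27 and 2.45, adjusted p = 0.099). All 8 of these arrays were positive. The 2 values lie on the way from HM-1 to ZFCUMNT, yet the direct comparison of those lines gave 0.37 ± 0.42 (arrays 0.21, 0.01, 0.47 and 0.79, adjusted p = 1.0). Mrpl3, Mrpl9, Mrpl30 and Mrpl55 were measured on 42, 33, 31 and 46 arrays, and Mrpl3, at 1.22 ± 0.90, and Mrpl9, at -1.72 ± 0.73, were the extremes of HM-1 vs B6NT with 3 arrays each (adjusted p = 1.0 and 0.75). Mrpl55 reached -1.25 in HM-1 NT vs ZFCUMNT, and Mrpl30 -0.87 in HM-1 vs HM-1 NT.

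The 13 genes of the large subunit without a bacterial counterpart had spans of 0.47 to 2.53 (median 1.36). Mrpl57, with the smallest span, was positive in 11 of 13 comparisons but only between -0.07 and 0.40, and Mrpl53 (-0.25 to 0.26), Mrpl49 (-0.35 to 0.23) and Mrpl42 (-0.06 to 0.53) were as flat. Mrpl58, a peptidyl-tRNA hydrolase that frees stalled chains and is built into the ribosome, had the widest span, from -1.35 ± 0.39 in HM-1 vs B6PGA to 1.19 in HM-1 vs #4 (B6). Its arrays in the first read -0.14, -1.63 and -2.24 (adjusted p = 0.14) and in the second 0.46, 1.12, 1.03 and 2.13 (adjusted p = 0.23). Without array 1 of HM-1 vs B6PGA the value was -1.93 and passed (adjusted p = 0.035), which rested on the readings of -1.63 and -2.24 alone. Mrpl45, which tethers the ribosome to the inner membrane, ran from -0.58 to 1.08, the latter in #4 (B6) vs B6PGA with arrays of 0.62, 2.46, 0.75 and 0.51 (adjusted p = 0.17).

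Mrpl46 was at 0.91 in HM-1 vs PDCUMNT (arrays 1.80, 0.72, -0.45 and 1.56, adjusted p = 0.11), and without array 3 it was at 1.31 and passed (0.019). Mrpl52 reached 1.25 in PDCUMNT vs ZFCUMNT (adjusted p = 0.089), where array 3 read 4.58 and the others -0.34, 0.51 and 0.22. Mrpl37 was at -0.99 in #4 (B6) vs ZFCUMNT on arrays of -1.52, -0.79, -0.87 and -0.78 (adjusted p = 0.25), the same sign on all of them. Mrpl51 ran from -0.53 to 0.65 and Mrpl54 from -0.60 to 0.76. Mrpl38, with 33 arrays measured, and Mrpl43, with 46, scattered widely, with Mrpl38 at -4.42, -1.81 and 1.67 on 3 arrays of HM-1 vs #4 (B6) for a fit of -1.37 ± 1.03 (adjusted p = 1.0). Mrpl43 was the lowest in #4 (B6) vs ZFCUMNT at -1.09 ± 0.72 (adjusted p = 0.55), which rested on a reading of -4.42 on array 4.

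**Figure D3:**
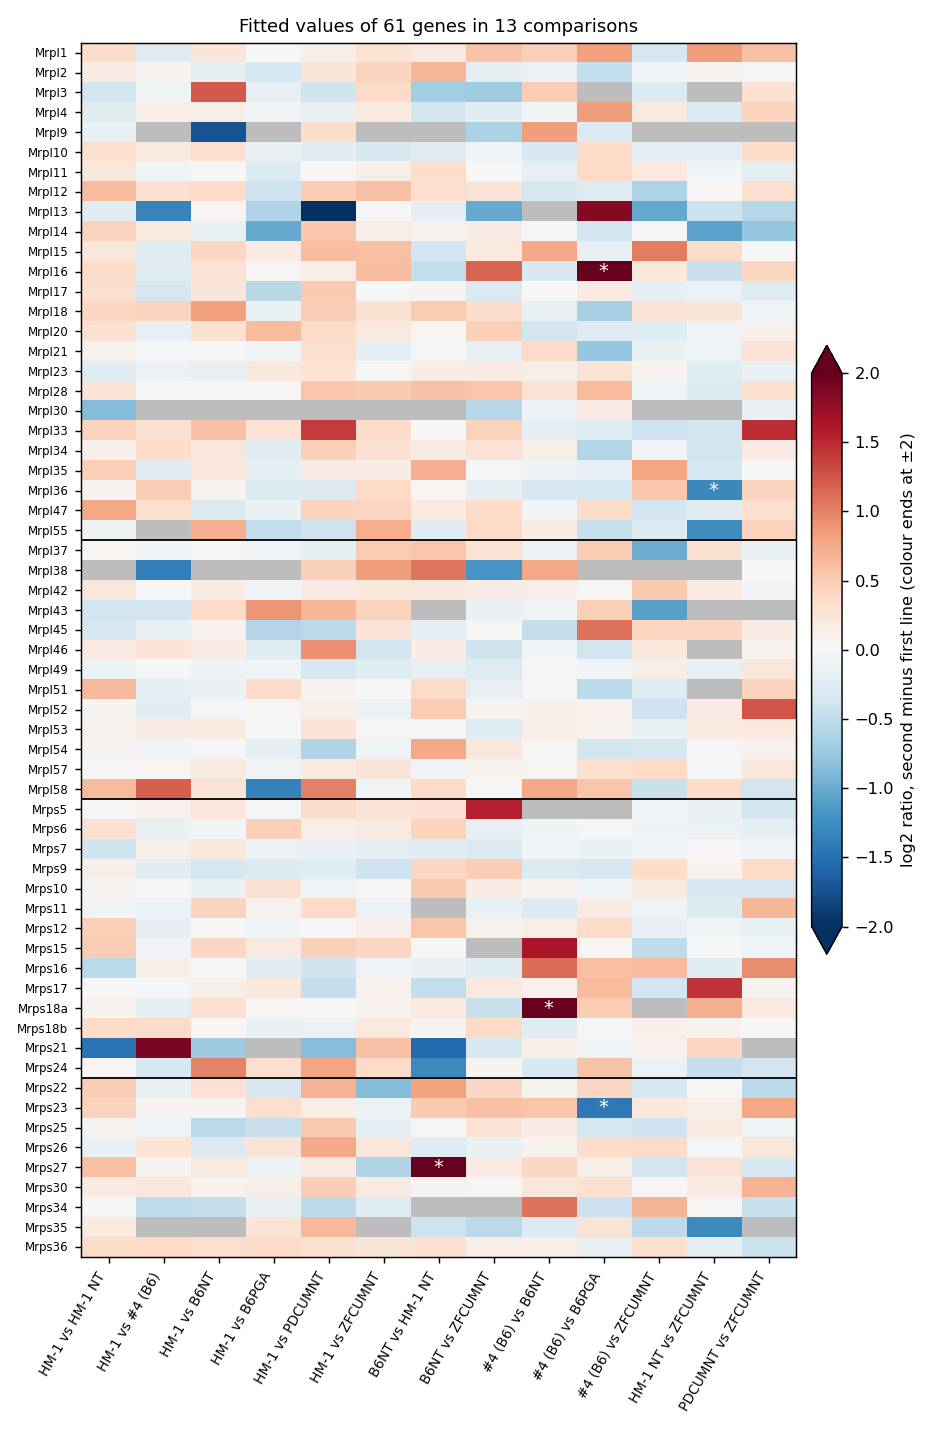
Fitted log2 ratios of the 61 genes (rows) in the 13 comparisons (columns), red where the second-named line is higher and blue where it is lower, with colours ending at ±2, grey where a gene was not tested and an asterisk where the adjusted p was under 0.05. Black lines separate, by symbol and from the top, large subunit genes with (25) and without (13) a bacterial counterpart and small subunit genes with (14) and without (9).

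The 14 genes with a small subunit symbol and a bacterial counterpart spanned 0.62 to 3.46 (median 1.30), the widest being Mrps18a. Mrps12, which lies at the decoding centre, stayed between -0.20 and 0.55 and never reached an unadjusted p of 0.05. The head protein Mrps7 (-0.40 to 0.22), Mrps9 (-0.41 to 0.49), Mrps6 (-0.19 to 0.47), Mrps10 (-0.33 to 0.53), Mrps18b (-0.25 to 0.40) and the platform protein Mrps11 (-0.27 to 0.66) were also flat. Mrps5 was at 1.56 ± 0.39 in B6NT vs ZFCUMNT, the highest of the group there, on arrays of 0.30, 0.50, 4.22 and 1.23, all positive (adjusted p = 0.13). Without array 1 of that comparison it was at 1.99 and passed (0.037). Mrps15 was at 1.63 in #4 (B6) vs B6NT on arrays of 2.46, -0.50 and 2.63 (adjusted p = 0.11), with no value on array 4. Without array 2 it passed at 2.55 (adjusted p = 0.0023), which rested on the readings of 2.46 and 2.63 alone. Arrays 3 and 4 of that comparison correlated below 0 with their prediction.

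Mrps16, in which mutations cause combined respiratory chain deficiency, was at 1.12 in #4 (B6) vs B6NT on arrays of -0.15, 1.19, 2.44 and 0.98 (adjusted p = 0.68). Mrps17 was the highest of HM-1 NT vs ZFCUMNT at 1.44 ± 0.40 (arrays 1.70, 2.51 and 0.36, adjusted p = 0.12). Mrps24 held the same sign and nearly the same reading on every array of B6NT vs HM-1 NT, -1.35, -1.50, -0.98 and -1.28, for a fit of -1.28 that did not pass (adjusted p = 0.27). Mrps21 was the lowest of HM-1 NT against HM-1 (-1.48 ± 0.84) and of B6NT vs HM-1 NT (-1.56 ± 0.84) and the highest of HM-1 vs #4 (B6) (1.88 ± 0.84), with 3 arrays and an adjusted p of 0.57 or more in each. It was measured on 39 arrays and had a residual standard deviation of 1.52.

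The 9 genes with a small subunit symbol and no bacterial counterpart spanned 0.68 to 2.98 (median 1.61), the widest being Mrps27. Mrps30, whose protein also sits in the large subunit in structures of the mammalian particle, was the only 1 of the 61 genes positive in all 13 comparisons. Its values were small, from 0.02 in B6NT vs ZFCUMNT to 0.70 in PDCUMNT vs ZFCUMNT (arrays -0.23, 1.07, 1.09 and 0.88, adjusted p = 0.25). Mrps36, which is known as a subunit of the 2-oxoglutarate dehydrogenase complex and is counted here by its symbol, lay between -0.43 and 0.40. Mrps22, another gene of respiratory chain deficiency, was the lowest of HM-1 vs ZFCUMNT at -0.86 ± 0.52 (arrays -1.63, -0.09 and -0.92, adjusted p = 1.0). Mrps25 (-0.53 to 0.52) and Mrps26 (-0.29 to 0.76) varied little, and Mrps34 (-0.53 to 1.09) and Mrps35 (-1.27 to 0.65) were measured on 43 and 37 arrays.

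The remaining extremes of a comparison did not pass either. Of HM-1 NT against HM-1 the highest was Mrpl47 at 0.78 ± 0.26, with 0.39, 0.57, 1.04 and 1.10 on its arrays (adjusted p = 0.33). In HM-1 vs B6PGA it was Mrpl43 at 0.89 ± 0.72 (adjusted p = 1.0), and in HM-1 vs ZFCUMNT Mrpl38 at 0.83 ± 1.03 (1.0). Mrpl38 was also the lowest of B6NT vs ZFCUMNT, at -1.18 ± 1.03 (1.0). Mrpl45 at -0.48 ± 0.37 was the lowest of #4 (B6) vs B6NT (1.0), and Mrpl15 the highest of #4 (B6) vs ZFCUMNT at 1.03 ± 0.49, where arrays 2, 3 and 4 read 2.61, 0.05 and -0.10 (adjusted p = 0.34). Mrpl14, to which an assembly factor of the large subunit binds, was the lowest of PDCUMNT vs ZFCUMNT at -0.77 ± 0.58 (0.69). Such extremes were in many cases genes with 3 arrays or with 1 reading far from the others.

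Taken as a group, the genes were shifted to positive values against HM-1 in the 4 comparisons with lines that have NT in their names. Their median was 0.10 in HM-1 vs HM-1 NT, with 43 of 60 values positive, where the median of all features was -0.05 and 44.8% of them were positive. In HM-1 vs B6NT the medians were 0.12 and 0.02 (37 of 58 positive, all features 53.2%), in HM-1 vs PDCUMNT 0.19 and -0.08 (42 of 60, 42.6%) and in HM-1 vs ZFCUMNT 0.17 and -0.06 (40 of 58, 43.3%). The shift against all features was therefore 0.15, 0.10, 0.27 and 0.23 on the log2 scale. These are small differences of a median over genes and carry no test, and no single gene passed in the 4 comparisons. Medians were planned for each comparison, and sorting the lines by NT in the name was not part of that plan. The median in HM-1 NT against HM-1 was 0.18 without array 3 or without array 4, over 1.5 times the value with all arrays.

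On single arrays the median of the genes, less the median of all features on that array, was above 0 on 16 of the 16 arrays of these 4 comparisons (lowest 0.02, median 0.17, highest 0.34). It read 0.24, 0.31, 0.04 and 0.10 for HM-1 NT, 0.20, 0.05, 0.02 and 0.03 for B6NT, 0.32, 0.34, 0.22 and 0.15 for PDCUMNT and 0.15, 0.25, 0.14 and 0.27 for ZFCUMNT, each against HM-1. Since arrays 3 and 4 have the dyes exchanged, the sign held in both orientations, though in the first 3 of these comparisons the Cy5 arrays were higher than the Cy3 arrays. All 16 arrays hold HM-1 RNA, and the labels do not say that it came from separate extracts. They are therefore not 16 replicates of a difference. Against #4 (B6) and B6PGA the genes were above the array median on 2 of 8 arrays (lowest -0.21, median -0.02, highest 0.13).

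The 39 genes with a bacterial counterpart were above the array median on 16 of the 16 arrays (median 0.23) and the 22 without one on 12 (median 0.09). The 38 genes with large subunit symbols were above it on 15 (median 0.19) and the 23 with small subunit symbols on 10 (median 0.15). A median over fewer genes scatters more, so these counts of arrays are not read as a difference between classes. Other gene groups also lay above the array median: the respiratory chain and ATP synthase genes on 15 of 16 arrays (median 0.19) and the cytosolic ribosomal protein genes on 14 (median 0.07), while 31 genes of mitochondrial translation factors, tRNA synthetases, ribosome assembly and transcription were above it on 10 (median 0.02). So did marker lists of cell types. The 10 measured ES markers were above it on 13 of the 16 arrays (from -0.24 to 0.70, median 0.30). The 12 measured markers of fibroblasts and feeder cells were above it on 13 (from -0.05 to 0.51, median 0.26), and on 8 of 8 arrays against #4 (B6) and B6PGA (from 0.17 to 1.28). The part of these in the shift of the mitochondrial ribosomal protein genes was not tested.

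In the comparisons without HM-1, only B6NT vs HM-1 NT had all 4 arrays on 1 side, at 0.24, 0.17, 0.12 and 0.18, with 36 of 56 values positive and a fitted shift of 0.10. The cytosolic ribosomal protein genes were shifted by 0.25, the ES markers by 0.33 and the fibroblast markers by 0.50 there, and the part of these was not tested. In #4 (B6) vs ZFCUMNT the genes were lower, with a shift of -0.16 and 24 of 57 values positive, but the arrays read -0.44, -0.25, -0.04 and 0.15. The ES markers were shifted by 0.59 there, above the array median on 4 of 4 arrays, and the fibroblast markers by -0.31, on 0 of 4, and their part was not tested. The shift was 0.03 in #4 (B6) vs B6NT, 0.06 in #4 (B6) vs B6PGA, -0.04 in HM-1 NT vs ZFCUMNT, -0.03 in PDCUMNT vs ZFCUMNT, 0.01 in HM-1 vs #4 (B6), -0.03 in HM-1 vs B6PGA and 0.0 in B6NT vs ZFCUMNT, with arrays on either side of 0 in all of these but HM-1 vs B6PGA.

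**Figure D4:**
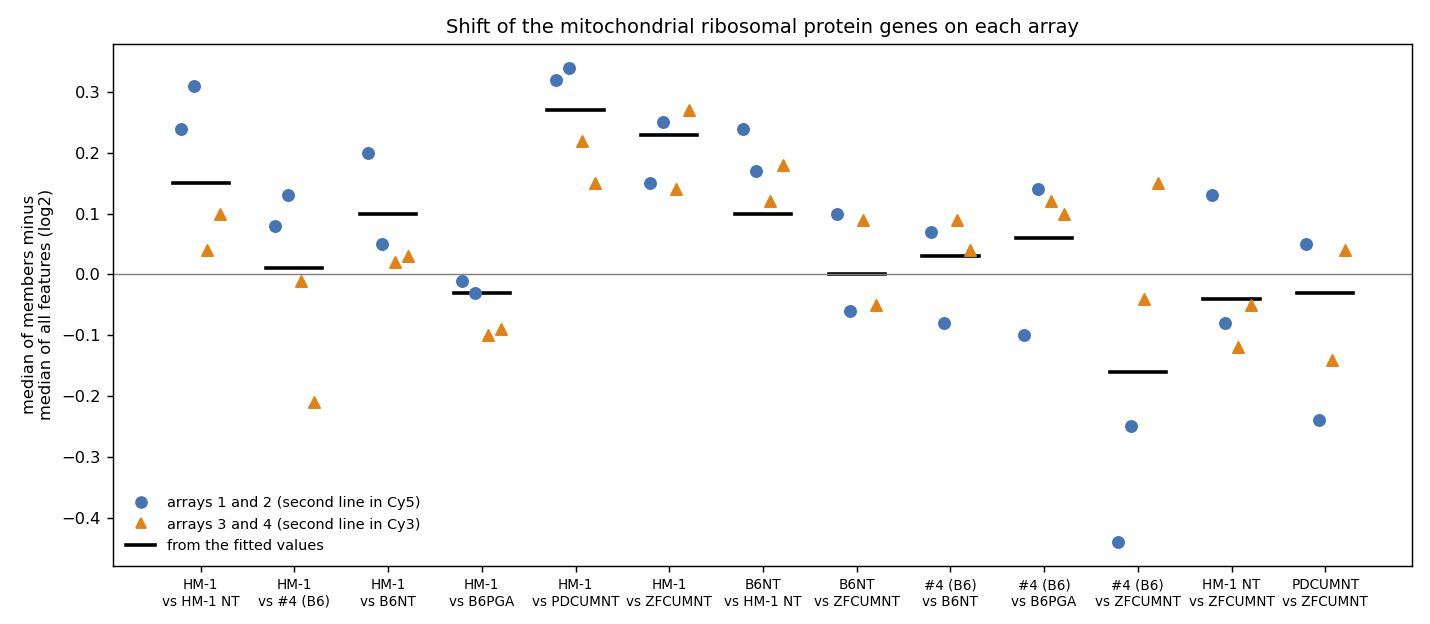
Median of the mitochondrial ribosomal protein genes minus the median of all features (y axis, log2) on each of the 4 arrays of the 13 comparisons (x axis), with circles for arrays 1 and 2, triangles for arrays 3 and 4 and a black line for the shift of the fitted values. All 4 arrays lay above 0 in HM-1 vs HM-1 NT, B6NT, PDCUMNT and ZFCUMNT and in B6NT vs HM-1 NT, and the arrays of #4 (B6) vs ZFCUMNT ran from -0.44 to 0.15.

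The shift between lines can also be read through another line. HM-1 to ZFCUMNT was 0.23 directly and 0.23 through PDCUMNT, but 0.11 through HM-1 NT, 0.09 through B6NT and -0.16 through #4 (B6). HM-1 to HM-1 NT was 0.15 directly, 0.19 through B6NT and 0.27 through ZFCUMNT. HM-1 to B6NT was 0.10 directly, 0.04 through #4 (B6), 0.05 through HM-1 NT and 0.23 through ZFCUMNT. HM-1 to PDCUMNT was 0.27 directly and 0.26 through ZFCUMNT. Of all 27 routes through another line, 17 had the sign of the direct shift. For #4 (B6) to ZFCUMNT the direct shift was -0.16, and it was 0.22 through HM-1 and 0.03 through B6NT.

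Levels per line were then fitted from 1 mean ratio per comparison, which treats the 4 arrays as 1 replicate and leaves 7 residual degrees of freedom. Of the 45 genes measured in all 13 comparisons 0 passed limma's F test between the lines after adjustment, with 3 at an unadjusted p under 0.05, against 18 of 11291 features (0.159%) and 1322 at the unadjusted level. The lowest p belonged to Mrpl15 (limma, adjusted p = 0.20), at 0.45 ± 0.11 in ZFCUMNT, 0.41 ± 0.18 in PDCUMNT, 0.26 ± 0.13 in B6NT, 0.02 ± 0.15 in HM-1 NT, -0.25 ± 0.10 in HM-1, -0.38 ± 0.18 in B6PGA and -0.52 ± 0.13 in #4 (B6), each relative to the mean of the 7 lines. Neighbours in this order differed by less than the sum of their standard errors, except HM-1 NT and HM-1, whose gap was slightly larger than that sum.

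Mrpl14 followed (adjusted p = 0.36), from 0.58 ± 0.22 in PDCUMNT and 0.47 ± 0.18 in HM-1 NT to -0.76 ± 0.22 in B6PGA, the other 4 lines lying between -0.13 and -0.02. Mrpl18 came next (adjusted p = 0.41), lowest in B6PGA (-0.51 ± 0.20) and HM-1 (-0.33 ± 0.11) and between 0.01 and 0.27 in the other 5 lines. The 3 genes were low in B6PGA, but their order of the other lines differed. Over the 45 genes the median level was -0.06 in HM-1, where 12 were above 0, and 0.17 in HM-1 NT, where 34 were. It was 0.05 in ZFCUMNT (32 above 0), 0.02 in PDCUMNT (24), -0.03 in B6NT (18) and B6PGA (21) and -0.05 in #4 (B6) (21). B6NT was thus level with B6PGA and close to #4 (B6), so these levels did not separate all lines with NT in the name from the others. Over all 11291 features the median was 0.03 in HM-1, 0.02 in HM-1 NT and -0.07 in PDCUMNT, so several of these levels were no larger than those of the array as a whole. In HM-1 NT the cytosolic ribosomal protein genes had a median of 0.18, with 51 of 57 above 0. Respiratory chain and ATP synthase genes were at -0.12 in HM-1 and 0.12 in HM-1 NT.

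**Figure D5:**
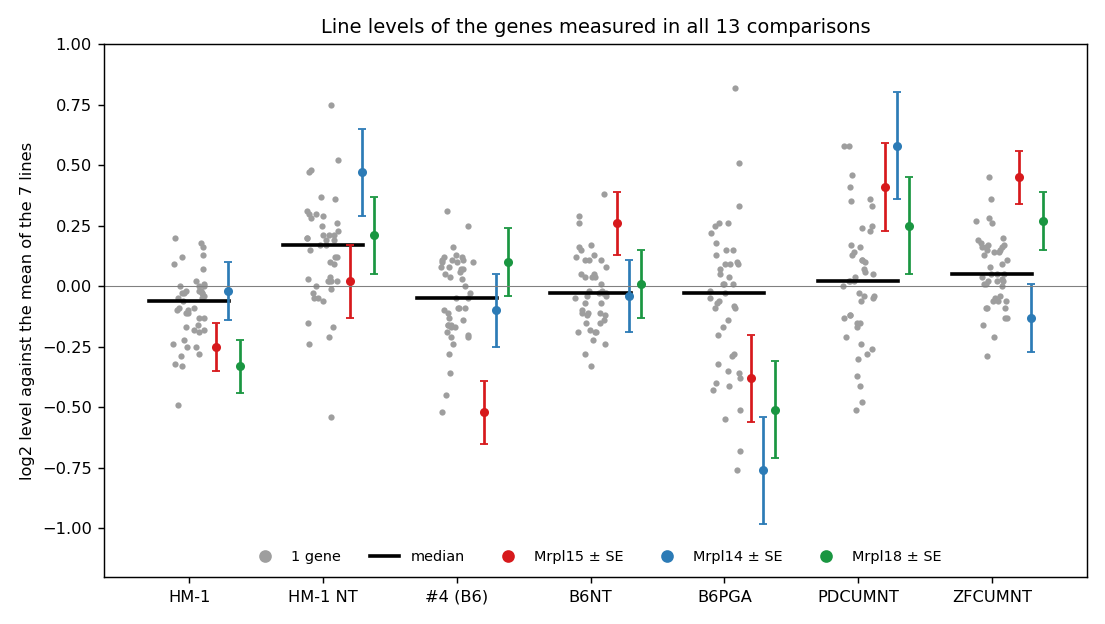
Fitted log2 level (y axis, relative to the mean of the 7 lines) of the 45 genes measured in all 13 comparisons, by line (x axis), with 1 grey point per gene, a black line at the median and coloured points with standard errors for Mrpl15, Mrpl14 and Mrpl18. The medians ran from -0.06 in HM-1 to 0.17 in HM-1 NT, and all 3 coloured genes lay below 0 in B6PGA.

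The genes varied together only weakly. Over the 52 arrays, with the dye term and the array median removed, the mean pairwise correlation was 0.0476 among the 30 genes measured on all arrays, against 0.0285 among 3816 named genes. It was 0.0698 among large subunit and 0.0156 among small subunit genes, 0.121 among cytosolic ribosomal protein genes and 0.0856 among respiratory chain and ATP synthase genes. Over the means of the 13 comparisons it was 0.0419 among the 30 genes, against 0.00182 among named genes. There the cytosolic ribosomal protein genes were at 0.182 and the respiratory chain and ATP synthase genes at 0.114. All such pairs share arrays and scanner settings, and the values are a description. Different probes of a gene often disagreed as well. For the 11 genes with 2 probes the fitted values had opposite signs in 70 of 137 cases (51.1%), for all 2018 genes with 2 probes in 47.5% and for cytosolic ribosomal protein genes with 2 probes in 40.7%. Of the genes with 2 probes, Mrps23, with 3 of 13 comparisons of opposite sign, and Mrpl34, with 4 of 13, were at the low end. Mrps18b, with 9 of 13, and Mrps17, with 8 of 11, were at the high end. Mrps6 has 3 probes, of which any 2 could differ in sign, so its 9 of 13 is not comparable. Dye terms passed an adjusted p of 0.05 in 20 of the 61 genes (32.8%), near the 30.3% of all features.

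Among genes that act with the mitochondrial ribosome, the 31 measured genes of translation factors, tRNA synthetases, ribosome assembly and mitochondrial transcription had 1 call in 392 values (0.255%, all features 0.532%). It was Fars2, the mitochondrial phenylalanyl-tRNA synthetase, at -1.76 ± 0.38 in HM-1 vs PDCUMNT (n = 4, adjusted p = 0.013). Among 4 ribosomal proteins whose symbols lack the Mrp stem (Dap3, Chchd1, Gadd45gip1 and Ptcd3) 0 of 46 values passed in limma's fit and 4 had an unadjusted p under 0.05. The 8 values of respiratory chain and ATP synthase genes that passed included 5 in #4 (B6) vs ZFCUMNT, of 71 tested there and against 0.935% of all features, for Atp5k (1.42 ± 0.31), Atp5md (2.14 ± 0.50), Cox6b1 (1.92 ± 0.43), Cox6c (1.37 ± 0.35) and Uqcr11 (1.92 ± 0.49), all small subunits of the complexes and all positive. As a list, the respiratory chain and ATP synthase genes were shifted by only 0.03 against all features there. Of their 71 values 43 were positive, where 55.8% of all features were. In the same comparison no mitochondrial ribosomal protein gene passed and their median was below that of all features.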

How the data were processed

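The deposited table gave 1 value per probe and array, read here as log2 ratios that the authors made from an array's Cy3 and Cy5 channels, the dyes per the labels' protocols. Log base, numerator dye, centring and normalization are not given in the sources used here. Array medians ran from -0.21 to 0.47, so arrays were not all centred on 0. The protocols also mention thawed organs and, as reference, pooled material of control animals, while the channel labels name ES lines in both channels and were followed. Between 17620 and 20200 of 20794 probes were measured per array; the number of arrays limits the precision. On each array 20 to 174 probes shared 1 top value of at least 15.7 (next highest value 10.7), treated as not measured, which removed 13 values of these genes. Of the probes 12771 had a symbol. Ratios were turned by the dye labels and probes averaged per gene.

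limma 3.58.1 in R 4.3.3 fitted all 52 arrays together with 13 coefficients and a dye term per feature, with Benjamini-Hochberg adjustment within each comparison and a threshold of 0.05. Tests across features were tested on simulated data with noise independent between arrays, which does not cover correlation between arrays. Alternatives were the dye term, the top values, centring, scaling, array weights, separate fits, all 4 arrays required, unturned ratios, a replicate block, single probes and each array left out. Array numbers did not pair arrays across comparisons (mean residual correlation -0.0345 for the same number, -0.0354 for another of the same orientation). Every gene of the family was to be named, with array values for those called, the highest and lowest of each comparison and the 3 lowest p between lines; other array values were chosen after they were seen. The family and the gene lists were chosen with earlier results of these data known. Symbols such as Rps6k, which are kinases, were left out of the cytosolic list. Promoters were matched by Entrez gene.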

Additional observations from a re-analysis of the deposited data

How the results depend on the processing

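With each comparison fitted alone, which gives up the spread shared over comparisons, 0 of the 5 calls passed in limma's fit (0 in B6NT vs HM-1 NT, #4 (B6) vs B6NT, #4 (B6) vs B6PGA and HM-1 NT vs ZFCUMNT), and with lines fitted in place of comparisons also 0, in the same 4. With a replicate block on the array number 5 passed, and all 5 were shared; it changed no call. Subtracting array medians gave 5 shared calls and moved the median of the genes in #4 (B6) vs ZFCUMNT from -0.09 to -0.17. Without the dye term 3 passed (1 in #4 (B6) vs B6PGA, 0 in HM-1 NT vs ZFCUMNT). With all 4 arrays required 3 passed (0 in #4 (B6) vs B6NT and HM-1 NT vs ZFCUMNT). Probes tested singly gave 4 calls, with 1 in #4 (B6) vs B6PGA. Keeping the constant top values gave 2 in HM-1 NT vs ZFCUMNT, the second being Mrpl43 at -7.08. Scaling the arrays gave 6 in all, 3 of them shared: 1 in HM-1 vs B6PGA, 1 in B6NT vs ZFCUMNT, 2 in #4 (B6) vs B6NT, 0 in B6NT vs HM-1 NT and 0 in HM-1 NT vs ZFCUMNT. Array weights gave 7, 3 of them shared: 1 each in HM-1 vs #4 (B6), HM-1 vs B6NT and B6NT vs ZFCUMNT, 2 in #4 (B6) vs B6NT, 0 in B6NT vs HM-1 NT and 0 in HM-1 NT vs ZFCUMNT. Without the 6 arrays that correlated below 0 with their prediction, an alternative chosen after seeing the data, 3 passed, all shared, with 0 in HM-1 NT vs ZFCUMNT; #4 (B6) vs B6NT could not be fitted.

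Ratios left as they stand do not estimate line differences. Each comparison has 2 arrays in each dye orientation, so a difference between lines cancels where all 4 were measured. A difference between Cy5 and Cy3 is then left. In that fit 15 values passed and 0 were shared: 4 in HM-1 vs #4 (B6), 1 in HM-1 vs B6PGA, 1 in HM-1 vs PDCUMNT, 1 in B6NT vs HM-1 NT, 0 in #4 (B6) vs B6NT, 1 in #4 (B6) vs B6PGA, 3 in #4 (B6) vs ZFCUMNT and 4 in HM-1 NT vs ZFCUMNT. Mrpl36 (1.11), Mrps18a (-0.24) and Mrps27 (-1.06) had the opposite sign there, which is not read as the sign of a line difference. The medians of these unturned values, again mainly of the dyes, were 0.13 in HM-1 vs B6PGA, 0.06 in #4 (B6) vs ZFCUMNT and 0.22 in HM-1 NT vs ZFCUMNT.

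Leaving out 1 array gave 0 to 1 calls in HM-1 vs B6PGA (1 without array 1), HM-1 vs PDCUMNT (1 without array 3), B6NT vs HM-1 NT (0 without arrays 1, 3 or 4), B6NT vs ZFCUMNT (1 without array 1), #4 (B6) vs ZFCUMNT (1 without array 2, Mrpl35, or array 4, Mrpl42) and HM-1 NT vs ZFCUMNT (0 without arrays 1, 3 or 4). It gave 0 to 2 in #4 (B6) vs B6NT (0 without array 1, 2 without array 2) and in PDCUMNT vs ZFCUMNT (2 without array 1, Mrpl33 and Mrpl52; 1 without array 4, Mrpl52), and 1 to 2 in #4 (B6) vs B6PGA (1 without arrays 2 or 3; without array 1 Mrpl21 passed in place of Mrps23). The medians ran from -0.04 to 0.09 in #4 (B6) vs B6NT and from -0.05 to 0.16 in #4 (B6) vs B6PGA, from -0.06 to 0.20 in B6NT vs ZFCUMNT, from -0.14 to 0.03 in HM-1 NT vs ZFCUMNT; for HM-1 NT against HM-1 they lay between 0.08 and 0.18. Between lines 0 genes passed under the alternatives run, including the 52 arrays fitted singly (lowest adjusted p = 0.072). In that limma fit 551 of 11291 features passed, and 8 of the 45 genes had an unadjusted p under 0.05. Apart from the unturned ratios, the causes of the changes under these alternatives were not tested. No absolute level, depth or spot background was used, and values of genes with few measured arrays, such as Mrpl38, Mrpl9 and Mrpl30, have wide errors.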
